A study of Mus musculus with 16 samples.

Results

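The whole course of differentiation of wild-type mouse embryonic stem cells toward epiblast-like cells was read as 1 comparison: the 2 libraries of E14 WT cells at day 7 against the 2 of the same cells at day 0, across all genes. These are 4 of 16 bulk RNA sequencing libraries, picked by the genotype and day in the sample titles. The other 12 are WT cells at days 2 and 4 and cells of a genotype written TKO at days 0, 2, 4 and 7, with 2 libraries per group. The labels do not expand TKO; the transcript of Dnmt1, the maintenance DNA methyltransferase, was at 310 to 545 CPM (counts scaled to a common library total) in the WT libraries and 36.2 to 55.9 CPM in the TKO libraries.

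All cells came from the mouse embryonic stem cell line ES-E14TG2a. At day 0 they were on fibronectin in N2B27 medium with 1000 U/ml LIF, a Gsk3 inhibitor at 3 µM, a MEK inhibitor at 1 µM and vitamin C at 100 µg/ml, a mixture that holds cells in the naive state. Differentiation was begun by a change to N2B27 with 12 ng/ml Fgf2, 20 ng/ml Activin A and 1% knock-out serum, and the cultures were split again at day 4. Day 7 therefore differs from day 0 in time, in medium and in this split, which cannot be told apart. Hprt, whose loss is a known property of this line, was at 0.216 and 0.126 CPM at day 0 and 0.362 and 0.482 CPM at day 7. The labels call the libraries biological replicates, and nothing says whether they came from separate cultures. Each p-value therefore measures only spread between libraries. That spread was estimated within groups over all 16 libraries, TKO and the other days included, and not from the 4 compared libraries alone. A fit of those 4 alone called 10219 genes, against 12233 in the fit of all 16.

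In the mouse embryo, cells of the early epiblast are in a naive state of pluripotency, held in culture by LIF signalling through Stat3 and by blocking the kinases Gsk3 and MEK. Fgf2 and Activin A carry such cells toward a formative and then a primed state, in which Otx2 and Pou3f1 act with Pou5f1 and the de novo methyltransferases Dnmt3a and Dnmt3b add methyl groups to DNA. Genes of the germline are among the classic targets of promoter methylation at that time, and cells of the primed epiblast can go on to make primitive streak, endoderm or neural ectoderm.

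Of 18489 genes tested with edgeR's quasi-likelihood test, 12233 (66.2%) changed between day 0 and day 7 at an adjusted p under 0.05. Day 7 was higher for 6088 genes (32.9%) and lower for 6145 (33.2%). A change of at least 2-fold was called higher for 3654 genes (19.8%) and lower for 3430 (18.6%), and 4446 genes changed by at least 4-fold. The median log2 fold change over all genes tested was −0.03. For 14790 genes (80.0%) the libraries of the 2 days did not overlap. So a call by itself is common in this comparison. Gene lists are described below by how many members rose or fell and how far. Those counts are to be read beside the 32.9% of all genes called higher and the 33.2% called lower.

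Depth was alike in the 4 libraries, at 39799498 to 41009992 estimated counts, but the day 0 libraries differed from each other more than those of day 7. Among genes of at least 5 CPM, 117 of 10554 were over 2-fold apart between the day 0 libraries and 7 of 10760 between the day 7 libraries. The day 0 difference moved with transcript length: its Spearman correlation with effective length across genes was −0.772, against −0.008 at day 7, given here as a description because genes are not independent replicates. At day 0, replicate 1 was higher for short transcripts and replicate 2 for long ones. The day 2 libraries differed with length the other way (0.718), and those of day 4 less (0.151), which bears on the day 2 levels given below. The median log2 fold change from day 0 to day 7 ran from −0.21 to 0.28, from the shortest to the longest of 5 equal groups of genes by length, when both day 0 libraries were used. It ran from −0.37 to 0.48 against day 0 replicate 1 alone and from −0.01 to 0.11 against replicate 2 alone. Where leaving out a library moved a list's printed count or median by over 1.5 times, the value without it is given beside it below.

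**Figure D1:**
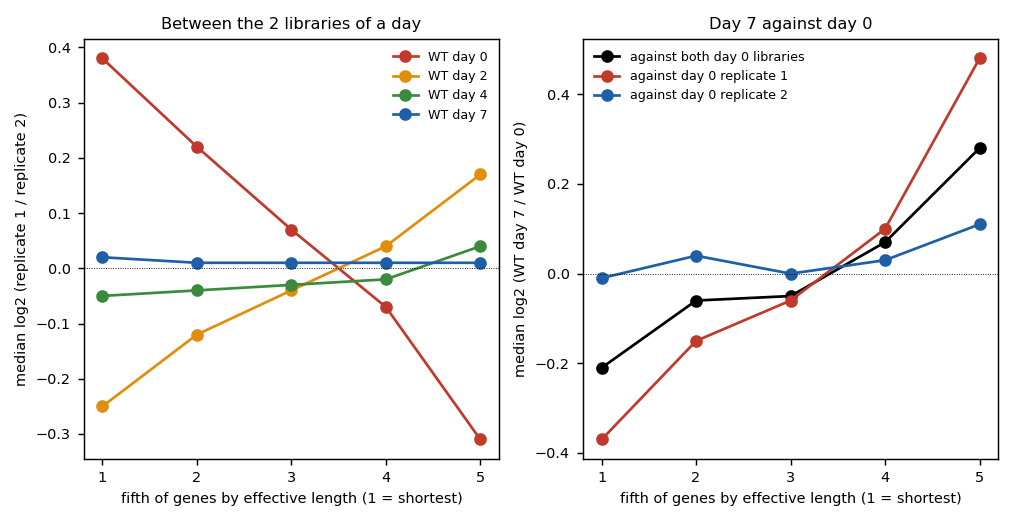
Median log2 ratio in 5 equal groups of genes by effective transcript length, for replicate 1 over replicate 2 within each day of WT cells and for day 7 over day 0. The day 0 replicates differ by 0.38 in the shortest group and −0.31 in the longest, and the day 7 over day 0 ratio rises with length from −0.21 to 0.28.

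The naive transcription factor network was nearly gone by day 7. Of 14 factors listed for the naive state, 13 fell, all by more than 2-fold, and 1 rose; the median log2 fold change was −7.03. Their summed level was 3127 and 3486 CPM at day 0, 435 and 470 CPM at day 2, 155 and 170 CPM at day 4 and 142 and 144 CPM at day 7, a 23.1-fold fall of which most had happened by day 2. In bulk samples, fewer cells that make a transcript and less of it per cell cannot be told apart.

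Esrrb (chr12:86361117-86521628, GRCm38), an orphan nuclear receptor, was at 661 and 705 CPM at day 0 and at 2.66 and 2.34 CPM at day 7, a log2 fold change of −8.09 ± 0.44 (SE) with an adjusted p of 2.35e-08. Zfp42, the zinc finger gene also called Rex1, fell from 490 and 445 CPM to 1.01 and 0.603 CPM (log2 fold change −9.17 ± 0.32). Klf4 fell from 222 and 225 CPM to 1.76 and 2.24 CPM, and Tfcp2l1 from 789 and 1168 CPM to 8.57 and 6.87 CPM. For each of these genes both day 0 libraries lay far above both day 7 libraries. The speed differed: Zfp42 was still at 85.6 and 102 CPM on day 2, when Esrrb was at 50.9 and 53.3 CPM. Prdm14, which guards the naive state and founds the germline, was at 53.9 and 53.5 CPM at day 0 and had 1 count in each day 7 library, a ratio of 2230 (95% exact interval 616 to 18400, counting error only). Spic, an Ets factor, was at 52.2 and 42.0 CPM and then at 1 count in all, a ratio of 3890 (698 to 154000). Tfe3, which drives lysosomal genes and is kept out of the nucleus as cells leave the naive state, was the member that rose, from 74.5 and 74.2 CPM to 99.1 and 103 CPM (log2 fold change 0.45 ± 0.07). Mitf, of the same family, fell from 84.8 and 102 CPM to 1.45 and 1.69 CPM, so relatives went opposite ways.

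All 15 of the other naive state genes tested fell, 14 of them by 2-fold or more, with a median log2 fold change of −7.01 and a 19.9-fold fall of their sum. Tdh, the threonine dehydrogenase on which naive mouse cells rely, was at 711 and 593 CPM at day 0 and 0.507 and 0.531 CPM at day 7 (log2 fold change −10.29 ± 0.30). Tcl1, a co-activator of the kinase Akt, fell from 129 and 103 CPM to 0.0724 and 0.0482 CPM. Pramel6 was at 8.52 and 8.06 CPM and had 0 counts at day 7, at least 229-fold lower on a floor of 3 counts over the group. These 3 are near or at the detection limit at day 7. Fgf4, the growth factor that naive cells secrete, took another path: it was at 140 and 126 CPM at day 0, 248 and 275 CPM at day 2 and 6.52 and 7.02 CPM at day 7. It was thus higher at day 2 than at day 0 in both libraries and fell after that.

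**Figure D2:**
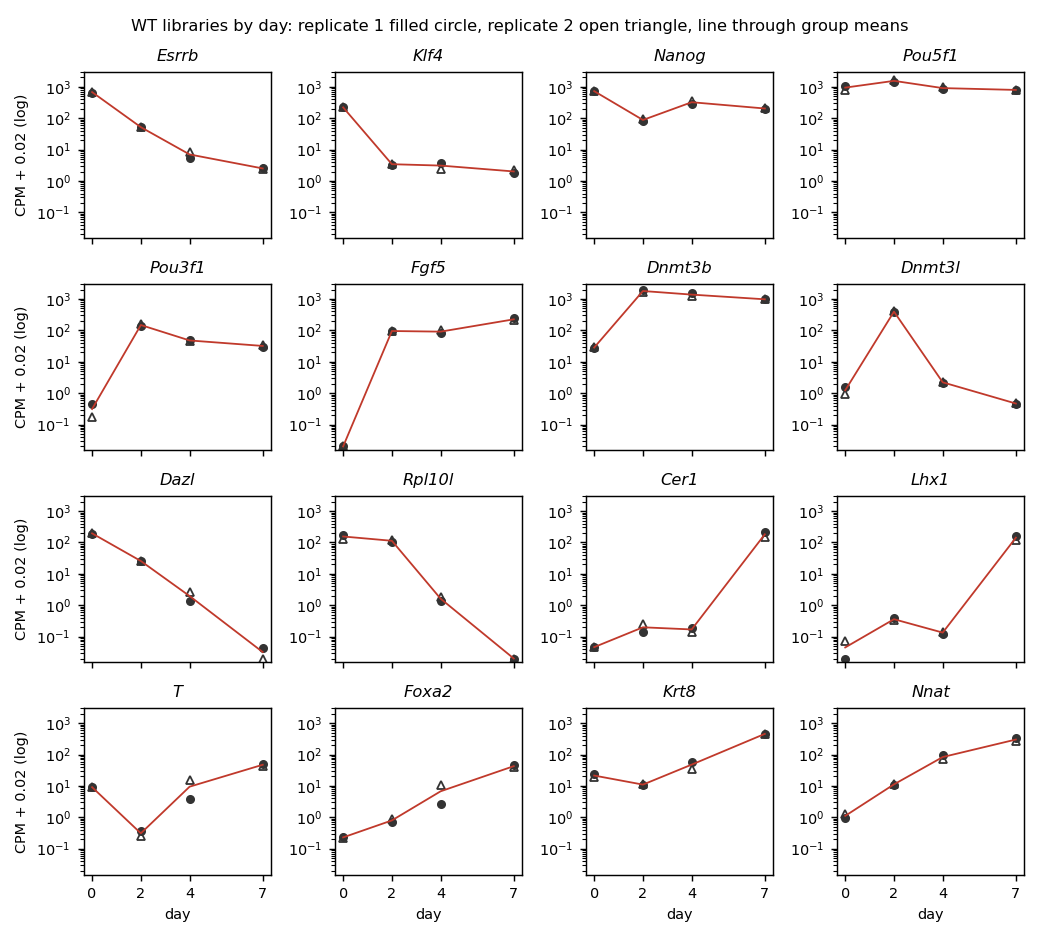
CPM of 16 genes in each WT library on days 0, 2, 4 and 7, on a log axis with 0.02 added so that 0 can be drawn; circles are replicate 1, triangles replicate 2, and lines join group means. Esrrb goes down at every step, Fgf5 goes from 0 counts to 243 and 207 CPM, and Dnmt3b is highest on day 2.

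LIF is in the day 0 medium and is not named for the later one. Of 12 genes of LIF and Stat3 signalling, 7 fell, 3 rose and 2 did not pass the test, with a median of −1.45. Bcl3, a nuclear partner of NF-kappaB, fell from 53.3 and 41.5 CPM to 0.266 and 0.579 CPM (log2 fold change −6.80 ± 0.30). Socs3, the feedback inhibitor of the pathway, fell from 86.6 and 74.8 CPM to 7.68 and 9.28 CPM, and the kinase gene Pim1 from 249 and 237 CPM to 30.0 and 32.0 CPM. Junb, which many growth factors induce, rose from 11.9 and 8.62 CPM to 31.5 and 34.4 CPM (log2 fold change 1.69 ± 0.20), and the phosphatase gene Ptpn11 rose from 83.3 and 93.3 CPM to 222 and 219 CPM. In the 5 genes just given, which were picked for large called changes, the libraries of the 2 days did not overlap, as in 80.0% of all genes tested.

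The core pluripotency genes did not go down as a group. Of 12 tested, 6 rose and 4 fell, the median was 0.33, and the sums were 3071 and 2709 CPM at day 0 and 2907 and 2973 CPM at day 7. Pou5f1 (Oct4), the central factor of every pluripotent state, was at 1094 and 803 CPM at day 0 and 779 and 823 CPM at day 7, which overlap (log2 fold change −0.24 ± 0.13, adjusted p = 0.104). Without day 0 replicate 2 the same change was −0.41 with an adjusted p of 0.00255. Per length it was at 1003 ± 92.5 TPM, a level scaled for transcript length and depth (SD, n = 2), at day 0 and 1035 ± 49.8 TPM at day 7. Nanog (chr6:122707489-122714633) was at 738 and 726 CPM at day 0, 83.6 and 92.9 CPM at day 2, 286 and 363 CPM at day 4 and 196 and 215 CPM at day 7, a fall with a partial return (log2 fold change −1.83 ± 0.11, adjusted p = 3.51e-09). Sox2 fell from 258 and 231 CPM to 59.1 and 53.9 CPM. Utf1, a chromatin protein of pluripotent cells, was highest on day 2, at 286 and 350 CPM, against 20.6 and 14.6 CPM on day 0 and 79.0 and 89.3 CPM on day 7. The RNA-binding proteins that block let-7 maturation rose. Lin28a went from 27.7 and 29.2 CPM on day 0 to 653 and 684 CPM on day 2 and 588 and 576 CPM on day 7 (log2 fold change 4.35 ± 0.09), and Lin28b from 3.89 and 4.30 CPM to 136 and 138 CPM.

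Genes of the formative and primed epiblast rose almost without exception: 18 of 19 rose, 17 of them by at least 2-fold, and none fell (1 fell without day 0 replicate 2). Their median was 2.67, and their sum went from 280 and 277 CPM at day 0 to 2338 and 2341 CPM at day 2 and 2179 and 2085 CPM at day 7, so most of the rise was in place on day 2. Fgf5 (chr5:98254184-98277030), the growth factor gene that marks the post-implantation epiblast, had 0 counts in both day 0 libraries and was at 98.4 and 92.4 CPM on day 2, 82.4 and 99.8 CPM on day 4 and 243 and 207 CPM on day 7. That is at least 5760-fold higher at day 7, and it reached 178 ± 20.3 TPM (SD, n = 2). Otx2 (chr14:48657677-48673819), the homeobox factor that directs the exit from the naive state, rose from 12.5 and 12.8 CPM to 218 and 176 CPM (log2 fold change 3.96 ± 0.12). Pou3f1, its POU factor partner, was highest on day 2 at 140 and 157 CPM and at 30.3 and 33.4 CPM on day 7, from 0.433 and 0.151 CPM on day 0. Sox11 rose from 0.270 and 0.477 CPM to 132 and 132 CPM. Fgf15 was at 81.1 and 86.0 CPM on day 2 and at 26.9 and 21.0 CPM on day 7. The day 7 libraries therefore carried the epiblast markers that the label epiblast-like calls for, with Pou3f1 and Fgf15 past their highest level.

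**Figure D3:**
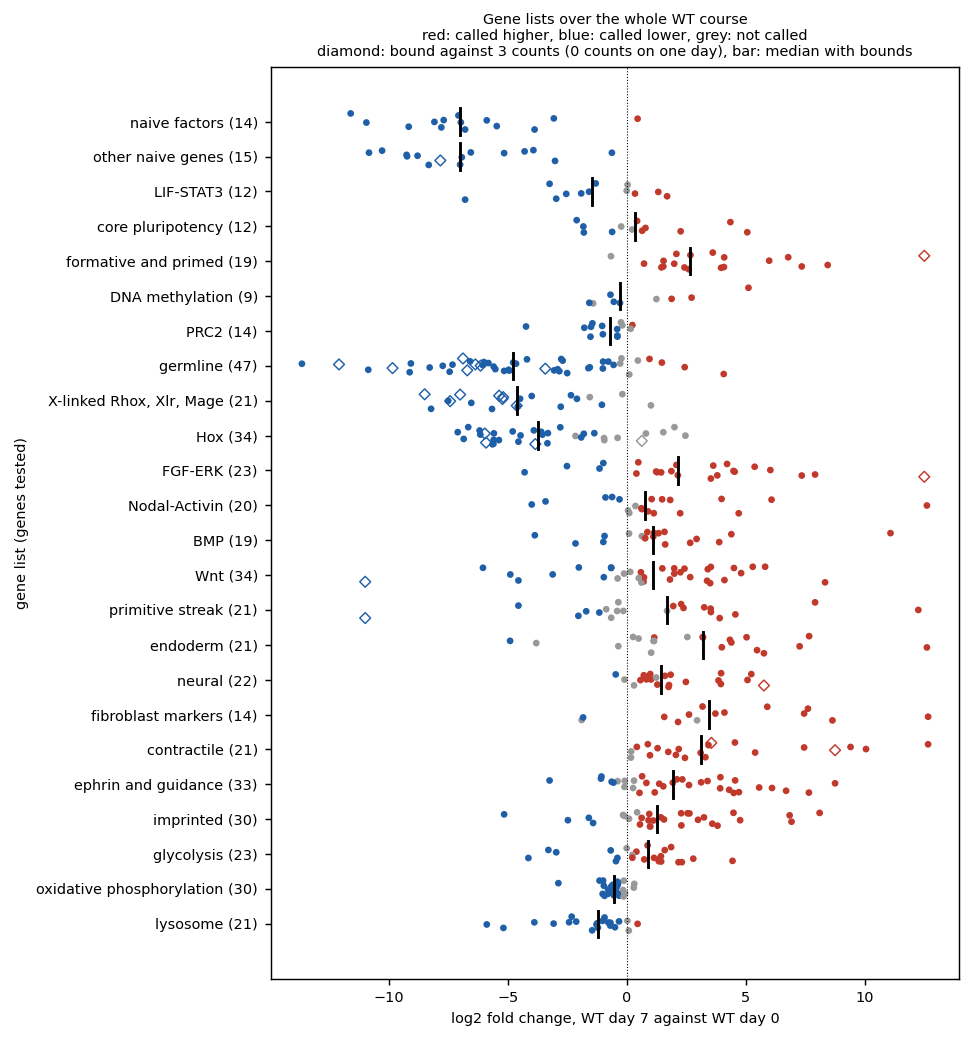
Log2 fold change from WT day 0 to WT day 7 of each tested gene in 24 lists; points are genes, coloured by call, diamonds are bounds for genes with 0 counts on a day, and black bars are list medians. The medians of the naive, germline, X-linked and Hox lists lie at −3.72 or below, and those of the formative, contractile, endoderm and fibroblast lists at 2.67 or above.

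Among the DNA methylation genes, the de novo enzymes rose, and the maintenance pair fell. In the list of 9, 3 rose and 4 fell. Dnmt3b (chr2:153649450-153687730) was at 27.3 and 29.3 CPM at day 0, 1898 and 1695 CPM at day 2, 1516 and 1245 CPM at day 4 and 991 and 965 CPM at day 7 (log2 fold change 5.11 ± 0.22). Dnmt3a rose from 27.5 and 33.1 CPM to 200 and 201 CPM (2.72 ± 0.59 on the log2 scale), after 974 and 952 CPM on day 2. Both were thus at their highest on day 2 and still far above day 0 on day 7. Dnmt3l, the catalytically inactive partner of the pair, was at 372 and 421 CPM on day 2 but at 1.51 and 0.904 CPM on day 0 and 0.434 and 0.458 CPM on day 7 (adjusted p = 0.078). The maintenance enzyme Dnmt1 fell from 457 and 545 CPM to 310 and 313 CPM, and its recruiting factor Uhrf1 from 978 and 1026 CPM to 337 and 335 CPM (log2 fold changes −0.69 ± 0.09 and −1.58 ± 0.07). Per length, Dnmt3b went from 9.81 ± 2.62 to 415 ± 0.562 TPM while Dnmt1 went from 125 ± 30.2 to 93.0 ± 1.69 TPM (SD, n = 2), so that the order of the 2 enzymes turned over. The enzymes that keep existing methylation thus lost transcripts while those that add it gained them. Uhrf2, a relative that does not replace Uhrf1, rose from 23.5 and 26.2 CPM to 96.3 and 87.1 CPM. Of 8 genes of DNA demethylation, 2 rose and 5 fell. Tet2, which oxidises methylcytosine, fell from 63.3 and 115 CPM to 12.2 and 13.7 CPM, while Tet3 rose from 20.5 and 32.8 CPM to 87.4 and 89.0 CPM. Of 8 methyl-CpG binding genes, 2 rose and 4 fell, but only 2 fell without day 0 replicate 2, 1 without day 7 replicate 1 and 2 without day 7 replicate 2, and 1 rose without day 7 replicate 2.

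Polycomb complex 2, which places H3K27 methylation, lost transcripts of most of its parts. Of 14 genes, 10 fell and 1 rose, with a median of −0.71; the 1 that rose, Jarid2, lost its call without day 0 replicate 1 (adjusted p = 0.212) or day 7 replicate 1 (0.0763), with the effective-length offset (0.0522), and in fits of the 8 WT (0.0676) or the 4 compared libraries (0.182). Without day 0 replicate 2, 2 genes rose. Mtf2, an accessory subunit that directs the complex to CpG islands, fell from 378 and 451 CPM to 118 and 122 CPM (log2 fold change −1.79 ± 0.11). Epop, an accessory subunit of pluripotent cells, fell from 88.6 and 61.2 CPM to 26.0 and 25.7 CPM. AU022751, the mouse gene for the inhibitor EZHIP, fell from 3.00 and 2.59 CPM to 0.169 and 0.121 CPM. Core subunits, named here after their values were seen, fell to unequal degrees: Suz12 from 448 and 512 CPM to 171 and 165 CPM, and the enzyme Ezh2 from 250 and 222 CPM to 183 and 174 CPM. In none of these 5 genes did the days overlap, which was so for 80.0% of all genes tested. Polycomb complex 1, with 9 of 22 higher and 9 lower, had no common direction. Phc1 rose from 196 and 200 CPM to 547 and 574 CPM after 1083 and 991 CPM on day 2, Yaf2 rose from 5.76 and 4.55 CPM to 23.4 and 22.7 CPM, and Pcgf1, of the variant complex that binds CpG islands, fell from 51.9 and 36.2 CPM to 12.0 and 12.3 CPM.

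Germline genes fell as a group. Of 47 tested, 39 fell, 36 of them by at least 2-fold, and 4 rose. The median was −4.94, or −4.78 with the 7 genes that had 0 counts at day 7 set to their bounds. The sum went from 1210 and 1116 CPM at day 0 to 949 and 1002 CPM at day 2, 363 and 438 CPM at day 4 and 128 and 136 CPM at day 7, an 8.83-fold fall that began later than that of the naive factors.

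3 of the genes that fell furthest are shown with the bases that precede their annotated start, since such CpG-bearing promoters are what DNA methylation acts on; methylation itself was not measured in these libraries. Sequences are from the RefSeq table, build GRCm38.p6, up to 250 bases before the start and 5′ to 3′ on the gene's strand. Rpl10l, a testis copy of a ribosomal protein gene, follows chr12:66284402-66284651 on the minus strand, with 8 CpG. Dazl, which binds messenger RNA in germ cells, follows chr17:50293637-50293870 on the minus strand, with 19 CpG; 16 bases annotated as exon are left out. Hormad1, a protein of the meiotic chromosome axis, follows chr3:95559427-95559676 on the plus strand, with 19 CpG. Capitals mark CACGTG, the E-box that Max with Mga can bind, and TCGCGC, the E2F6 type of site; both strands were searched.
Rpl10l: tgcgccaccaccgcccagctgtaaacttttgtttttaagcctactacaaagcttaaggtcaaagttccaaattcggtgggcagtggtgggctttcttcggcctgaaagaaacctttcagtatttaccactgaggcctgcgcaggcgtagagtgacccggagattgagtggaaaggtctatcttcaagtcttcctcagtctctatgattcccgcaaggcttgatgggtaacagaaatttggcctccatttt
Dazl: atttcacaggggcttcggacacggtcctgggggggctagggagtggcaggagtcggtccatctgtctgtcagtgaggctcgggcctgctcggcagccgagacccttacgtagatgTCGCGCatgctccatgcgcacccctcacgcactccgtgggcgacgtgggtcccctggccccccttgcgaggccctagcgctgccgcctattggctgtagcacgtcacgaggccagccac
Hormad1: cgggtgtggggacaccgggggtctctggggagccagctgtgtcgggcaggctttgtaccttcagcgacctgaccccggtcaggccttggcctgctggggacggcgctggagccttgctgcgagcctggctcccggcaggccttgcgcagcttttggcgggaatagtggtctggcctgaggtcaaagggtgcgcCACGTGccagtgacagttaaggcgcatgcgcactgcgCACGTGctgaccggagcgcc
CACGTG stood in this window in 16 of 41 germline genes matched to the table (39.0%) and in 1854 of all 27025 genes (6.86%). TCGCGC or its reverse complement stood in 8 (19.5%) and in 2238 of all genes (8.28%). The median number of CpG was 15.0 in the germline genes and 6.0 in all genes. It was also 15.0 in the formative list and higher in the endoderm list, in both of which more genes rose than fell. TCGCGC or its reverse complement stood before 16.7% of the matched formative genes and 21.4% of the endoderm genes. CpG number and TCGCGC thus did not set the germline genes apart from these lists. CACGTG was rarer in them, at 16.7% and 7.14%. A match describes the letters and is not a bound site.

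Rpl10l was at 179 and 130 CPM at day 0, 102 and 124 CPM at day 2, 1.34 and 1.84 CPM at day 4 and 0 counts at day 7, at least 4260-fold lower. Dazl was at 190 and 200 CPM at day 0, 26.1 and 25.1 CPM at day 2, 1.34 and 2.53 CPM at day 4 and 1 count in all at day 7, a ratio of 16200 (95% exact interval 2910 to 640000). Hormad1 was at 35.7 and 31.3 CPM at day 0, at 41.1 and 45.2 CPM at day 2 and at 0 counts at day 7, at least 924-fold lower. All 3 were still present in both libraries of day 2, Dazl at a much lower level than on day 0, and were nearly gone on day 4 (Hormad1 at 0.983 and 1.55 CPM). What lowered them was not tested. Tdrd5, a tudor protein of the piRNA pathway, went the other way, from 1.51 and 2.11 CPM to 9.63 and 9.96 CPM (log2 fold change 2.43 ± 0.15) after 28.4 and 25.0 CPM on day 4. The germ cell helicase Ddx4, named here after its values were seen, rose before it fell: it was at 6.49 and 6.53 CPM on day 0, 28.5 and 28.1 CPM on day 2, 20.1 and 30.8 CPM on day 4 and 0.266 and 0.145 CPM on day 7. So the members did not share 1 time course, although nearly all ended low.

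X-linked genes of the kind expressed in testis and placenta fell too: 18 of 21 were lower, all by at least 2-fold, none rose, and the median was −5.67 (−4.63 with 7 genes at their bounds). Their sum fell 4.18-fold. Magea4 was at 13.4 and 12.8 CPM and then at 0 counts, at least 362-fold lower, and the homeobox genes Rhox1 and Rhox13 were at least 172-fold and 129-fold lower. The Rhox and Xlr families hold near-identical copies among which read assignment is uncertain. CACGTG stood before 1 of 19 matched genes of this list (5.26%), and their median CpG count was 5.0. Of 14 genes of primordial germ cells, 10 fell and 4 rose. Tfap2c, a specification factor, fell from 57.6 and 54.4 CPM to 1.88 and 1.95 CPM, whereas Cxcr4, the receptor that guides migrating germ cells and is also a gene of definitive endoderm, rose from 2.19 and 2.26 CPM to 53.1 and 36.6 CPM. Of 16 genes of the 2-cell-like state, 4 (25.0%) fell and none rose, against 33.2% and 32.9% of all genes. Of the 16, 8 had 0 counts at day 7 and 6 had 0 counts at day 0, so some could hardly be called in this comparison. The sum of the list was 93.0 and 85.0 CPM at day 0, 355 and 393 CPM at day 2 and 5.43 and 4.97 CPM at day 7. Most of it came from Dppa2, at 39.1 and 37.1 CPM at day 0 and 185 and 210 CPM at day 2, and Dppa4, at 48.9 and 42.9 CPM and then 138 and 147 CPM. Zscan4c and Zscan4f had 10 counts each at day 0 and 0 at day 7, so the sum does not describe the Zscan4 genes.

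Signalling genes changed in most families. Of 23 genes of the FGF and ERK pathway, 19 rose and 4 fell, against 32.9% and 33.2% of all genes, with a median of 2.14. Among ligands, Fgf8, a gene of the streak, rose from 0.162 and 0.100 CPM to 35.3 and 28.9 CPM (log2 fold change 7.91 ± 0.71), beside the fall of Fgf4 and the rise of Fgf5 given above. Of the receptors, Fgfr4 fell from 3.81 and 4.09 CPM to 0.797 and 0.579 CPM. Among targets, Etv5, an Ets factor, fell from 364 and 393 CPM to 168 and 174 CPM, and Myc rose from 2.41 and 2.61 CPM to 57.4 and 54.8 CPM. Dusp6, the ERK phosphatase and a widely used readout of the pathway, named here after its values were seen, rose from 8.57 and 8.52 CPM to 162 and 154 CPM. The libraries of the 2 days overlapped in none of these genes, as was so for 80.0% of all genes tested.

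Of 20 genes of the Nodal and Activin pathway, 12 rose and 5 fell with a median of 0.76, and the number that fell was 2 to 4 when any 1 of the 4 libraries was left out. Lefty1, a feedback inhibitor, rose from 9.22 and 7.54 CPM to 593 and 542 CPM (log2 fold change 6.08 ± 0.64); its day 4 libraries stood far apart, at 187 and 738 CPM. Gdf3, a ligand of naive cells, fell from 149 and 126 CPM to 11.7 and 13.9 CPM, and Pcsk6, a protease that matures Nodal, from 102 and 106 CPM to 6.57 and 6.44 CPM. Nodal itself was at 59.7 and 51.7 CPM and then at 72.5 and 70.0 CPM (adjusted p = 0.186). For BMP signalling, 13 of 19 rose and 4 fell. Bmp2 went from 1 count in all to 37.1 and 32.2 CPM, a ratio of 2660 (477 to 105000), while Bmp4 fell from 7.60 and 7.59 CPM to 4.10 and 3.52 CPM. Id1, a target, rose from 3.16 and 2.29 CPM to 41.4 and 38.5 CPM (3.88 ± 0.47 on the log2 scale), and Id4 fell from 10.3 and 9.60 CPM to 2.12 and 2.31 CPM. The antagonist Nog rose from 0.351 and 0.176 CPM to 5.41 and 5.69 CPM, so ligand, target and antagonist all included risers.

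Of 34 Wnt genes, 20 rose and 9 fell, with a median of 1.10. Some known targets fell, and they do not stand for all targets of the pathway. Axin2, named after its values were seen, went from 87.1 and 104 CPM to 10.7 and 11.3 CPM. Sp5 went from 53.7 and 39.2 CPM to 1.54 and 1.57 CPM, and Notum, an enzyme that inactivates Wnt, from 25.4 and 21.4 CPM to 0.386 and 0.313 CPM. Cdx1, a caudal homeobox gene, was at 89.2 and 59.8 CPM at day 0 and at 0 counts at day 7, at least 2040-fold lower. Ligands moved both ways: Wnt5a went from 1 count per library to 9.63 and 9.07 CPM, a ratio of 359 (99.0 to 2970), and Wnt8a from 3 counts in all to 1.88 and 1.40 CPM, a ratio of 42.0 (14.1 to 206), while Wnt3a, named after its values were seen, went from 49 counts to 2, a ratio of 26.4 (6.94 to 225) the other way. The antagonist gene Dkk1 rose from 1.11 and 0.854 CPM to 59.9 and 50.4 CPM (log2 fold change 5.81 ± 0.37). Of 15 Notch genes, 10 rose, all by at least 2-fold, and 2 fell. Dll1, a ligand, peaked on day 2 at 30.3 and 34.3 CPM and was at 0.216 and 0.151 CPM on day 0 and 3.40 and 2.80 CPM on day 7. Dll3, a divergent ligand, rose from 0.487 and 0.527 CPM to 10.5 and 8.92 CPM, and Lfng, which glycosylates the receptor, from 0.351 and 0.477 CPM to 10.1 and 11.0 CPM. Rbpj, the DNA-binding partner of Notch, fell from 214 and 262 CPM to 160 and 151 CPM.

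Transcripts of streak and endoderm regulators were highest at day 7 in the WT course. Of 21 streak and mesoderm genes, 10 rose and 5 fell, all by at least 2-fold, with a median of 1.69 that was 0.52 without day 0 replicate 1, 0.60 without day 7 replicate 1 and 2.00 without day 0 replicate 2. The sum was 138 and 108 CPM at day 0, 26.6 and 28.3 CPM at day 2, 32.2 and 78.4 CPM at day 4 and 404 and 313 CPM at day 7. Most of the day 0 sum was Cdx1, given above and also in this list, at 89.2 and 59.8 CPM. Cdx1 was at 0.0609 CPM and 0 at day 2, so the fall of the sum to day 2 was mostly that of 1 gene. T (chr17:8434423-8442496), the Brachyury gene, was at 9.27 and 8.94 CPM on day 0, 0.345 and 0.233 CPM on day 2, 3.81 and 15.1 CPM on day 4 and 51.6 and 42.9 CPM on day 7 (log2 fold change 2.38 ± 0.62, adjusted p = 0.00653). It was therefore low rather than absent in naive medium, went down and came back. Lhx1, a LIM homeobox gene of the anterior streak and the node, went from 2 counts in all to 165 and 118 CPM, a ratio of 5440 (1510 to 45000). Evx1, of the posterior streak, rose from 0.108 and 0.100 CPM to 2.61 and 2.46 CPM. Chosen after their values were seen, Eomes rose from 8.14 and 7.81 CPM to 84.6 and 67.1 CPM, Gsc from 7.95 and 6.00 CPM to 31.3 and 22.6 CPM and Mixl1 from 0.433 and 0.477 CPM to 7.56 and 6.17 CPM. Cdx2 and Nkx1-2, of the posterior body, fell, Nkx1-2 from 13.4 and 14.9 CPM to 3.43 and 3.42 CPM. Genes of later mesoderm were not called: Tbx6 was at 0.622 and 0.728 CPM and then at 0.434 and 0.579 CPM, Msgn1 at 4 counts in all at day 7, and Mesp1 was below the filter on low counts.

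Of 21 endoderm genes, 12 rose, all by at least 2-fold, and 1 fell, with a median of 3.19; the sum was 187 and 248 CPM at day 0, 68.8 and 60.6 CPM at day 2, 147 and 138 CPM at day 4 and 790 and 627 CPM at day 7. Cer1 (chr4:82881751-82885148), a secreted inhibitor of Nodal, BMP and Wnt, went from 1 count per library to 209 and 154 CPM, a ratio of 6980 (1930 to 57700). Foxa2 (chr2:148042877-148046969), a forkhead factor of endoderm and node, was at 0.216 and 0.201 CPM on day 0, 2.71 and 10.7 CPM on day 4 and 46.1 and 39.2 CPM on day 7. Sox17 was at 1.00 and 0.578 CPM on day 0, at 0.0862 CPM and 0 on day 4 and at 40.8 and 29.2 CPM on day 7 (5.47 ± 0.37 on the log2 scale). Sox17 thus appeared between days 4 and 7, whereas Foxa2 was already up on day 4. In these 3 genes and in T, Lhx1 and Eomes, replicate 1 was the higher of the day 7 libraries. Gata3 rose from 0.297 and 0.553 CPM to 9.80 and 8.22 CPM, and the basement membrane gene Col4a1 from 1.41 and 1.66 CPM to 253 and 218 CPM. Lama1, another such gene, fell from 158 and 217 CPM to 6.06 and 6.44 CPM. Lama1 thus made up most of the day 0 sum of the list, and Col4a1 was the largest part named here of the day 7 sum. Genes of liver and visceral endoderm were near or at 0: Afp had 0 counts at day 7, and Ttr was at 0.362 and 0.338 CPM.

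**Figure D4:**
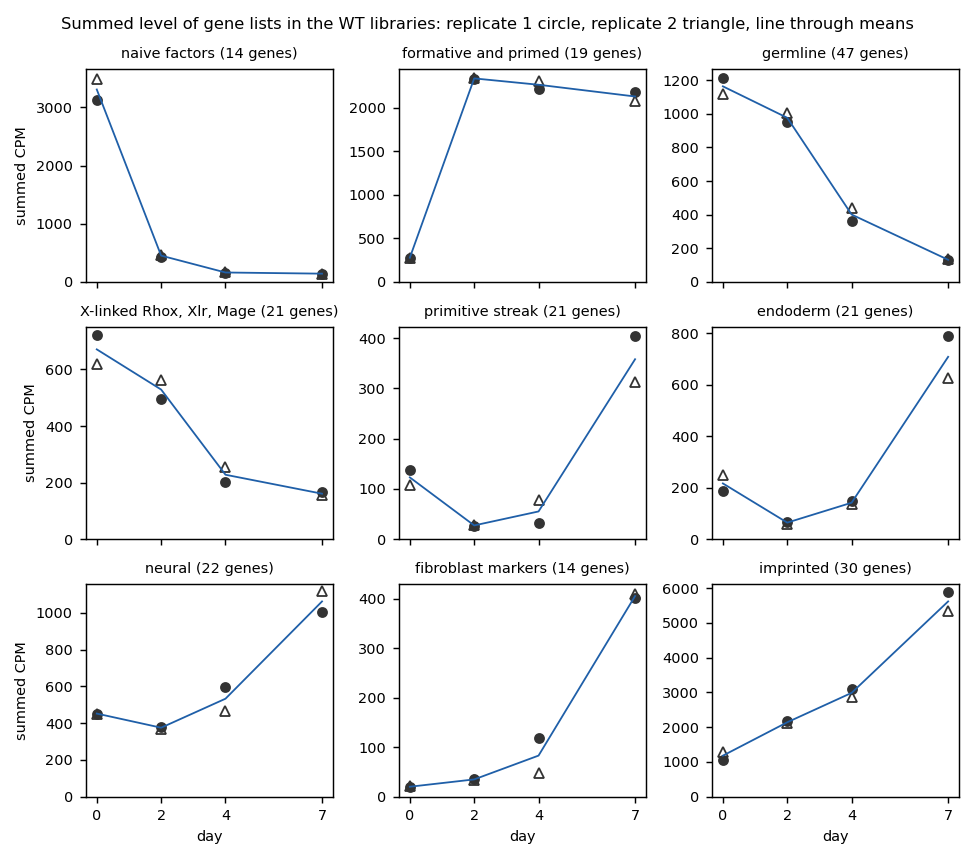
Summed CPM of 9 gene lists in each WT library by day, with circles for replicate 1, triangles for replicate 2 and a line through the day means. Naive factors fall by day 2, germline and X-linked genes mainly between days 2 and 4, and streak and endoderm sums are highest on day 7.

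Markers of other lineages moved on the same days, and their part in the results above was not tested. Of 22 neural genes, 18 rose, 13 by at least 2-fold, and 1 fell, and the sum went from 451 and 452 CPM to 1005 and 1121 CPM. Sox1, of the early neural plate, was highest on day 2, at 34.1 and 39.3 CPM, and at 11.3 and 8.87 CPM on day 7 against 5.16 and 5.43 CPM on day 0. Six3, of the forebrain, rose from 0.0541 and 0.201 CPM to 5.31 and 3.62 CPM, Irx3 from 0.514 and 0.477 CPM to 20.1 and 17.1 CPM, and Pax6 from 0.487 and 1.23 CPM to 2.73 and 2.53 CPM. Neurog1, Neurog2, Olig2 and Hes5 were below the filter. Of 14 fibroblast genes, 11 rose and 1 fell, and the sum went from 18.9 and 20.8 CPM to 401 and 410 CPM. Most of the day 7 sum came from contractile genes in the list: Acta2, smooth muscle actin, went from 2 counts in all to 191 and 186 CPM, a ratio of 7230 (2000 to 59700), and Tagln from 0.865 and 0.980 CPM to 151 and 174 CPM. The collagen genes Col1a1 and Col1a2 reached 6.83 and 3.69 CPM and 9.53 and 10.6 CPM, Thy1 5.43 and 7.74 CPM, Postn 6.03 and 5.33 CPM and Col3a1 10.2 and 2.56 CPM, Pdgfrb fell from 13.1 and 13.9 CPM to 4.22 and 3.30 CPM, and Lum and S100a4 were below the filter. Of 15 trophoblast genes, 7 rose and 5 fell; the simple-epithelium keratins Krt8 and Krt18 rose, Krt8 from 23.8 and 19.0 CPM to 458 and 454 CPM, while Elf5 was at 0.169 and 0.338 CPM at day 7 and Prl3d1 and Tpbpa were below the filter. Of 11 blood and endothelial genes, 2 rose and 5 fell (3 fell without day 0 replicate 2). Runx1 rose from 0.297 and 0.201 CPM to 30.7 and 26.1 CPM, Spi1 fell from 3.38 and 2.26 CPM to 0.0724 and 0.0482 CPM, Ptprc was at 0.217 and 0.313 CPM at day 7, Tal1 at 0.386 and 0.265 CPM and Gata1 at 0.628 and 0.458 CPM, and Hbb-bt, Lyz2 and Adgre1 were below the filter.

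Genes of cell shape rose with differentiation. Of 21 contractile genes, 19 rose and none fell, with a median of 3.10, and their sum went from 4472 and 4186 CPM to 10938 and 11508 CPM. Myl9, a myosin light chain, went from 3 counts in all to 43.5 and 45.4 CPM, a ratio of 1140 (389 to 5520), and Actc1, the cardiac actin, from 0 counts to 17.0 and 16.5 CPM, at least 429-fold higher. Actb, expressed in every cell, moved little beside them, from 1237 and 1050 CPM to 1506 and 1560 CPM. Of 6 keratins, 5 rose; Krt18 went from 6.51 and 5.05 CPM to 317 and 313 CPM and Krt19 from 0.892 and 0.804 CPM to 68.9 and 86.8 CPM, while Krt42 fell from 5.43 and 3.94 CPM to 0.0724 and 0.0965 CPM. Of 25 genes of adhesion and epithelial state, 17 rose and 6 fell. Cdh2 (N-cadherin) rose from 0.946 and 1.21 CPM to 136 and 109 CPM (log2 fold change 6.82 ± 0.16). Cdh1 (E-cadherin) stayed high, at 1008 and 1117 CPM and then at 741 and 805 CPM (−0.46 ± 0.13, adjusted p = 0.0072); that call was lost without day 0 replicate 2 (adjusted p = 0.0749) or day 7 replicate 1 (adjusted p = 0.0862). Epithelial genes rose too: the tight junction gene Cldn6 from 5.43 and 4.90 CPM to 218 and 219 CPM, and the epithelial splicing factor Esrp1 from 0.730 and 0.854 CPM to 118 and 123 CPM. Transcripts of both cadherins and of epithelial genes were thus present at day 7.

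The matrix changed in both directions, with 14 of 23 genes higher and 6 lower. Fn1, fibronectin, fell from 1371 and 2160 CPM to 526 and 571 CPM, and Nid1, which links laminin to collagen, from 344 and 495 CPM to 27.8 and 29.5 CPM (log2 fold change −3.87), beside the fall of Lama1 and the rise of Col4a1 given above. Of 33 ephrin and guidance genes, 23 rose and 5 fell, with a median of 1.93. The semaphorin genes Sema6d and Sema3e rose from 0.0541 and 0.100 CPM to 40.6 and 29.0 CPM and from 0.433 and 0.477 CPM to 43.4 and 51.3 CPM. Their co-receptor gene Nrp1 rose from 0.216 and 0.0502 CPM to 30.1 and 23.4 CPM, while Nrp2 fell from 22.3 and 26.6 CPM to 12.2 and 10.8 CPM. Epha4, an ephrin receptor, fell from 88.9 and 125 CPM to 12.3 and 10.2 CPM. Day 0 and day 7 did not overlap in these genes, nor in 80.0% of all genes tested.

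Imprinted genes rose over the whole course. Of 30 tested, 21 rose, 16 by at least 2-fold, and 4 fell, with a median of 1.27; these libraries do not separate the parental alleles. Their sum was 1064 and 1292 CPM at day 0, 2165 and 2113 CPM at day 2, 3110 and 2861 CPM at day 4 and 5884 and 5355 CPM at day 7, higher at each step. Nnat, a small membrane protein of neural and other tissues, rose from 0.946 and 1.23 CPM to 340 and 263 CPM (log2 fold change 8.10 ± 0.21). Igf2, the fetal growth factor, rose from 0.108 and 0.100 CPM to 12.6 and 12.1 CPM, and Magel2 from 0.0811 and 0.327 CPM to 22.9 and 28.0 CPM. Most of the rise in the sum came from 4 genes named after their values were seen: Peg3 (1455 and 1283 CPM at day 7), Peg10 (902 and 830 CPM), Mest (834 and 682 CPM) and Gnas (590 and 592 CPM). Those that fell included Plagl1, a growth-arrest factor, from 130 and 165 CPM to 29.2 and 23.6 CPM, and Igf2r, the receptor that clears Igf2, from 164 and 246 CPM to 64.9 and 70.2 CPM.

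Hox genes were low throughout and lower at day 7: 25 of 34 fell, all by at least 2-fold, and none rose at an adjusted p under 0.05. The sum went from 88.4 and 83.7 CPM to 5.41 and 2.82 CPM. Hoxc4 fell from 10.7 and 10.1 CPM to 0.0966 and 0.0482 CPM (log2 fold change −7.11 ± 0.50), and Hoxb13 from 2.32 and 2.21 CPM to 0 counts, at least 62.6-fold lower. Hoxb1, the first of its cluster to be used in the streak, was at 0.135 and 0.301 CPM and then at 0.266 and 0.506 CPM, which overlap. Among the clustered protocadherins only the 22 beta genes were listed, and 13 passed the filter on low counts over all 16 libraries. Of these 13, 5 had 0 counts at day 0 and could only be called higher. Of 13 clustered protocadherin genes, 10 were called higher, but 5 without day 0 replicate 1, 6 without day 7 replicate 1, 6 and 4 in fits of the 8 WT and the 4 compared libraries, and 2 with a stricter filter on low counts; Pcdhb22 rose from 0.378 and 0.226 CPM to 5.12 and 4.68 CPM.

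Metabolic genes moved in a split way. Of 23 glycolysis genes, 15 rose and 6 fell, with a median of 0.87. Within gene pairs the directions differed. Of the phosphofructokinase genes, Pfkl rose from 66.3 and 55.5 CPM to 397 and 442 CPM while Pfkp fell from 356 and 454 CPM to 21.0 and 24.9 CPM. Of the lactate dehydrogenase genes, Ldha rose from 302 and 239 CPM to 1318 and 1367 CPM while Ldhb fell from 134 and 91.1 CPM to 12.4 and 10.6 CPM. Hk1, a hexokinase gene, fell from 282 and 303 CPM to 37.0 and 37.9 CPM, and Slc16a3, the lactate exporter, rose from 11.4 and 11.6 CPM to 229 and 268 CPM (log2 fold change 4.44 ± 0.13). Of 30 oxidative phosphorylation genes, 24 fell and none rose, but only 3 by 2-fold or more (1 and 7 without day 0 replicate 1 and 2), and the median was −0.52. Their sums of 8050 and 6147 CPM at day 0 stood further apart than those of any later day, against 4772 and 4727 CPM at day 7, and these are short transcripts, the class in which day 0 replicate 1 was high. Without that library 18 fell, 1 rose and the median was −0.30; without day 0 replicate 2, 27 fell and the median was −0.70; with an offset for effective length, 24 fell. Cox7a1, a subunit isoform of cytochrome oxidase, fell by more, from 31.2 and 20.8 CPM to 3.67 and 3.38 CPM. Of 21 lysosomal genes, 18 fell, 12 by at least 2-fold, and 1 rose (2 without day 0 replicate 1); Tfeb, their regulator, fell from 28.8 and 22.0 CPM to 1.76 and 1.66 CPM and Gpnmb from 5.65 and 5.15 CPM to 0.193 and 0.0965 CPM. Of 20 cholesterol synthesis genes, 14 rose, 4 of them by 2-fold or more, and 3 fell: Hmgcs1 rose from 507 and 520 CPM to 1167 and 1139 CPM and Insig1, which restrains the pathway, fell from 277 and 253 CPM to 104 and 92.7 CPM. Of 17 genes of serine and amino acid supply, 7 rose and 2 fell; Slc7a11, the cystine importer, rose from 2.24 and 2.39 CPM to 38.9 and 37.5 CPM and Asns fell from 1176 and 964 CPM to 393 and 396 CPM.

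The remaining lists had members moving both ways. Of all genes tested, 32.9% were called higher and 33.2% lower. The shares were 23.5% and 41.2% in the p53 list, 25.0% and 35.7% in the interferon list and 25.0% and 25.0% in the reference list. These are not far from the shares of all genes and are not read as a trait of those lists. Of 22 cell cycle genes, 9 rose and 10 fell. Ccnd2, cyclin D2, rose from 0.460 and 0.427 CPM to 193 and 177 CPM (8.70 ± 0.92 on the log2 scale) and Mycl from 9.19 and 9.97 CPM to 96.5 and 79.9 CPM, while the inhibitor Cdkn2c fell from 3.22 and 2.96 CPM to 0.241 and 0.362 CPM and Rbl2 from 21.7 and 22.8 CPM to 4.61 and 4.08 CPM. Of 17 p53 target genes, 4 rose and 7 fell; Cdkn1a fell from 359 and 303 CPM to 141 and 127 CPM and Perp rose from 4.87 and 4.25 CPM to 46.9 and 50.2 CPM. Of 28 interferon genes, 7 rose and 10 fell: Oas1a fell from 32.4 and 25.0 CPM to 1.01 and 0.916 CPM and Usp18 rose from 0.108 CPM and 0 to 7.94 and 6.94 CPM. Of 22 histone and chromatin genes, 13 rose and 4 fell, with H1f0, a linker histone of differentiated cells, up from 14.3 and 11.6 CPM to 88.6 and 86.1 CPM and H2afy, macroH2A, down from 321 and 280 CPM to 94.1 and 92.2 CPM. Of 20 splicing and RNA-binding genes, 8 rose and 4 fell, but 13 rose and 1 fell without day 0 replicate 2, and 2 fell without either day 7 library. Of 12 genes often used as references, 3 rose and 3 fell (5 fell without day 0 replicate 2). Gapdh was at 6175 and 5123 CPM and then at 5596 and 5617 CPM (log2 fold change −0.01 ± 0.10, adjusted p = 0.94), a value whose sign changed in 6 of the other settings.

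Other genes named for the size of their change follow, in no order. Among those that rose, Car4, a carbonic anhydrase, went from 1 count in all to 103 and 91.0 CPM, a ratio of 7440 (1330 to 294000). Pcdh7, a protocadherin, rose from 0 counts to 63.0 and 49.0 CPM (at least 1430-fold), and Spink1, a protease inhibitor of gut epithelium, from 0 counts to 47.1 and 34.0 CPM (at least 1040-fold). Enpp2, the lysophospholipase called autotaxin, rose from 0 counts to 25.1 and 23.0 CPM at day 7, but was at 263 and 358 CPM on day 4. Rfx6, an endoderm and islet factor, was at 16.5 and 12.3 CPM at day 7 and at 0 counts at day 0. Those that fell included Khdc3, an oocyte and naive cell gene, from 88.0 and 64.8 CPM to 0 counts (at least 2100-fold); Rpl39l, another ribosomal protein copy, from 73.9 and 50.4 CPM (at least 1710-fold); Sohlh2, a germ cell factor, from 58.6 and 59.2 CPM (at least 1630-fold); and Osm, a cytokine of the LIF family, from 29.2 and 27.3 CPM (at least 780-fold). Crxos, a homeobox gene of naive cells, fell from 252 and 209 CPM to 3 counts in all, a ratio of 6350 (2170 to 30800), and was already at 1.71 and 2.28 CPM on day 2, unlike Sohlh2, at 49.9 and 50.6 CPM on that day.

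Whether the course differed by genotype was tested as the difference between the TKO and WT changes from day 0 to day 7. It was called for 5014 genes (27.1%), with the change higher in TKO for 2930 (15.8%) and lower for 2084 (11.3%). For germline genes the change was higher in TKO for 37 of 47 and lower for 1. Its sum fell 8.83-fold in WT and 1.28-fold in TKO, from 920 and 917 CPM to 711 and 719 CPM. Of the X-linked genes, 19 of 21 had a higher change in TKO, with a 4.18-fold fall in WT and a 1.24-fold fall in TKO. The 2-cell-like list rose to 497 and 869 CPM at day 7 in TKO against 5.43 and 4.97 CPM in WT. The TKO sum included Zscan4f at 93.5 and 180 CPM and Zscan4c at 53.4 and 96.4 CPM, whereas the WT sums were mostly Dppa2 and Dppa4. The naive factors fell 23.1-fold in WT and 28.0-fold in TKO, with the difference called for 6 of 14, and the formative genes rose 7.65-fold and 6.03-fold, with 8 of 19 called, 4 each way. As a sum, the other naive genes fell 19.9-fold in WT and 15.8-fold in TKO. The change of the other naive genes was called higher in TKO for 9 of 15 and lower for 1. The streak sum rose 2.92-fold in WT and 11.4-fold in TKO, to 1218 and 1258 CPM, and the endoderm sum 3.26-fold and 2.22-fold. At WT day 0, Cdx1 made up most of the streak sum and Lama1 most of the endoderm sum. Glycolysis genes rose 1.32-fold as a sum in WT and fell 1.57-fold in TKO, with 17 of 23 lower in the test. The oxidative phosphorylation sum fell 1.49-fold and 1.48-fold, with 1 gene called.

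**Figure D5:**
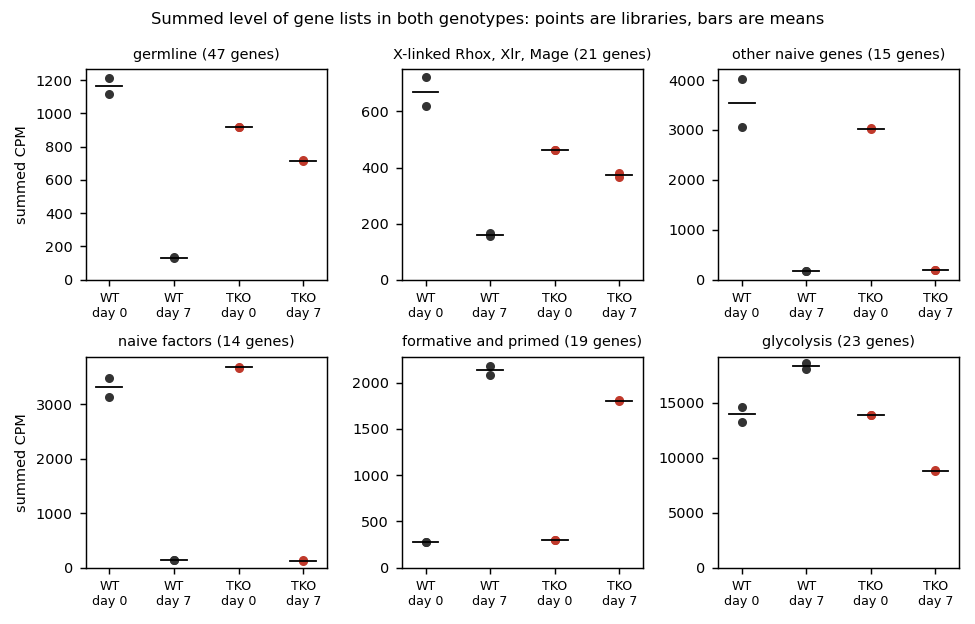
Summed CPM of 6 gene lists in each WT and TKO library at day 0 and day 7; points are libraries and bars are means. Germline and X-linked sums fall 8.83-fold and 4.18-fold in WT and 1.28-fold and 1.24-fold in TKO, whereas naive sums fall and formative sums rise in both.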

How the data were processed

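Stranded messenger RNA libraries were made from the total RNA of 16 samples, per the labels' protocols. The deposited tables hold estimated counts (expected counts) and TPM per transcript, per the file headers, from kallisto, whose version is not given in the sources used here; the builds GRCm38 and mm10 are named per the submitters' processing notes. TPM values were scaled by the authors for depth and length. Of 119414 transcripts, 116728 (97.8%) were matched by Ensembl identifier to 35975 genes, and unmatched ones held 0.946 to 1.05% of counts. The estimated counts of a gene's transcripts were added and rounded. All 16 libraries (33168178 to 58197630 counts) entered edgeR 4.0.16 (R 4.3.3; limma 3.58.1) with TMM scaling, filterByExpr and 1 mean per group, and 18489 genes passed the filter on low counts. The quasi-likelihood test called genes at p under 0.05 after Benjamini-Hochberg adjustment across the whole table; a further rule asked for a 2-fold change. CPM are TMM-scaled. A group at 0 was set to a floor of 3 counts over the group for "at least" folds; with 1 to 3 counts, the ratio carries a 95% exact interval, for counting error only. Promoter sequences came from the RefSeq table; the window before Stra8 is annotated exon and is not shown. Genes were named by a rule. It took the 12 largest called rises and falls at 5 CPM or more without overlap, among protein-coding genes without clone or predicted names. It also took up to 3 called members of each list and direction at 1 CPM or more, and 26 fixed markers. Exceptions are marked. The markers given as low or absent, Hprt, Nodal, Tagln and Hoxb1 were also chosen after their values were seen. The comparison and the lists were chosen with earlier results of these data known. Alternatives were DESeq2 1.42.0, other filters and scalings, fewer libraries, an effective-length offset, a replicate block and leaving out each library. Same-numbered libraries of WT days 0 and 7 did not deviate together (correlation of deviations 0.00981). Those of days 0 and 2 deviated in opposite directions (−0.628). The procedure was tested on simulated data. The listed symbols Dux, Eif1ad8 and Tex13 were not matched to a gene, and a further gene of the lists is not reported here.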

Additional observations from a re-analysis of the deposited data

Results flagged for a closer look

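These genes had the largest differences, in each direction, between the change from day 0 to day 7 in TKO and in WT by edgeR's test of the difference itself. They were picked among called protein-coding genes of at least 5 CPM in 1 or more of the compared groups. Genes with clone or predicted names were left out. 5 had a higher change in TKO: Zscan4-ps3 (difference of log2 changes 16.43), Lnp1 (15.97), Zscan4f (15.84), Zscan4-ps2 (15.62) and Zscan4c (15.44). All 5 had 0 counts in the WT day 7 libraries, so these fitted values depend on the prior count and are no measure of size; the TKO day 7 libraries held 45.5 and 89.5 CPM of Zscan4-ps3, 11.9 and 15.6 CPM of Lnp1, 93.5 and 180 CPM of Zscan4f, 42.9 and 75.6 CPM of Zscan4-ps2 and 53.4 and 96.4 CPM of Zscan4c. The Zscan4 genes, a mark of the 2-cell-like state, are near-identical copies among which reads cannot be placed with certainty, and their calls were lost without a filter on low counts (adjusted p 0.0652 for Zscan4-ps3, 0.0939 for Zscan4f, 0.077 for Zscan4-ps2 and 0.0612 for Zscan4c). Leaving out libraries also ended calls: of Zscan4-ps3 without WT day 0 replicate 1 (adjusted p = 0.0998) or 2 (0.16), of Zscan4-ps2 without WT day 0 replicate 2 (1), and of Zscan4c without WT day 0 replicate 1 (1). That of Zscan4f was lost without WT day 0 replicate 1 (0.0841) or 2 (1), TKO day 0 replicate 1 (0.0691) or 2 (0.0673), or WT day 7 replicate 2 (0.0502).

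5 genes had a lower change in TKO. Sfrp5, a secreted Wnt inhibitor, rose in WT from 0.0541 CPM and 0 to 31.5 and 23.5 CPM and was at 0.114 and 0.0866 CPM and then 0.0862 and 0.0826 CPM in TKO (difference −10.13 ± 1.10 SE, adjusted p = 1.63e-05). Hesx1, a homeobox gene of the anterior epiblast and forebrain, was at 7.79 and 7.31 CPM and then 14.1 and 9.77 CPM in WT, and at 9.51 and 9.47 CPM and then 0.144 and 0.0826 CPM in TKO (−7.02 ± 0.64). For both, the genotypes lay much further apart at day 7 than at day 0. Adora1, an adenosine receptor, differed by −5.32 and reached 10.6 and 9.16 CPM in WT and 0.690 and 0.579 CPM in TKO at day 7; its call was lost without TKO day 0 replicate 2 (adjusted p = 0.105). Pga5, a pepsinogen, differed by −5.04 and reached 98.1 and 66.2 CPM in WT and 5.26 and 6.28 CPM in TKO; its call was lost without any 1 of the day 0 libraries (adjusted p 0.0502 to 0.085) and without the filter (0.0518). Grb10, an imprinted adaptor of the insulin receptor, rose in WT from 32.1 and 37.9 CPM to 228 and 181 CPM and fell in TKO from 27.7 and 27.2 CPM to 7.73 and 7.22 CPM (−4.42 ± 0.22, adjusted p = 1.72e-08).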

How the results depend on the processing

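The number of genes called between WT day 0 and day 7, 12233, ranged from 10219 to 12210 over all other settings and from 10774 to 12037 when 1 library was left out; those called higher ranged from 5108 to 6188 and lower from 5111 to 6092. The difference between genotypes, called for 5014 genes, ranged from 3893 to 5717. DESeq2 called 11938 and 5223. The replicate block, added although nothing in the labels pairs same-numbered libraries, gave 12020 and 4634. No count over all genes moved by 1.5 times. Gapdh, at −0.01, changed sign without the filter on low counts (0.03), with the effective-length offset (0.02), in the 8 WT libraries alone (0.01) and without WT day 0 replicate 1 (0.13), WT day 7 replicate 1 (0.03) or WT day 7 replicate 2 (0.02), was −0.10 without WT day 0 replicate 2, and was not called in any of these. Of genes named above, Dnmt3l was called lower in 3 settings: the 8 WT libraries (−1.40, adjusted p = 0.002), the 4 libraries (−1.43, 0.0167) and DESeq2 (−1.43, 0.00392). Hox genes called lower went from 25 to 15 with the stricter filter, which tests fewer of them, and germline genes called higher from 4 to 2 with the effective-length offset. With 2 libraries a day, small changes in genes under about 1 CPM rest on few counts, and the length-dependent difference between the day 0 libraries limits what can be said of changes under 2-fold; its cause was not tested.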
